A study of Homo sapiens with 8 samples.

Results

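The genes described here are 35 human genes of cholesterol and fatty acid synthesis, of its control and of sterol transport, taken by symbol from the gene count tables of 22RV1 and DU145 prostate cancer cells. All 35 symbols were found among the 58828 genes listed, and the rule that picks them uses symbols and no measured value. The list of symbols was, however, chosen with earlier results of these data known. They were grouped by role into 7 genes of the mevalonate steps, 11 of the squalene and sterol steps, 5 regulators, 8 of the fatty acid and lipid steps and 4 of sterol transport and efflux. All 35 passed the filter on low counts, so none was left out of the tests.

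Cells build cholesterol from acetyl-CoA through the mevalonate pathway, which ends in isoprenoids and squalene, and a series of enzymes then closes and trims the sterol rings. Fatty acids are built from the same acetyl-CoA by ACLY, ACACA and FASN, and elongases and desaturases then shape the chains. The transcription factors SREBP-1 and SREBP-2, made from SREBF1 and SREBF2, switch on both sets of genes: SCAP escorts them to the Golgi for cleavage when sterols are low, and INSIG1 and INSIG2 hold them back in the endoplasmic reticulum when sterols are high. Liver X receptors, which sense oxysterols, drive the opposite arm, the efflux pumps ABCA1 and ABCG1. Prostate cancer cells are known for active lipid synthesis, FASN above all.

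RNA was sequenced from 22RV1 and DU145 cells that carried an empty vector (Vector) or a PAGE4 construct, treated with PBS or with H2O2 (200 mM by the labels and for 12 h by the written methods, while lower doses are given for other mRNA measurements of the study), which gives 8 conditions with 1 library each. PAGE4 is a stress-response protein of the prostate, and the study asked what it does in cancer cells under oxidative stress. Per the study's methods, the constructs were lentiviral, doxycycline-inducible and tagged with HA, cells were selected with puromycin, and doxycycline was given to vector and PAGE4 cells alike. Each construct in a line was thus 1 selected culture, so the construct and the culture cannot be told apart. All cells were grown in medium with fetal bovine serum, and the labels name Trizol for the RNA while the methods name a column kit.

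Levels are given in CPM, the counts of a gene scaled to a fixed library size, after TMM scaling over the 8 libraries. Changes are log2 fold changes from edgeR's quasi-likelihood test with the standard error (SE), and a gene was called at an adjusted p-value (Benjamini-Hochberg, over 22418 tested genes) under 0.05. With 1 library per condition, the vector pair and the PAGE4 pair of a line served as repeats of the H2O2 comparison, and the PBS pair and the H2O2 pair as repeats of the PAGE4 comparison. These p-values rest on the disagreement between such pairs and not on the spread between repeated cultures of a condition. In the PAGE4 comparison both pairs came from the same cultures. In the H2O2 comparison they came from cultures with different constructs, so any difference in response between the constructs counts as spread. edgeR estimates that disagreement over both lines together and moderates each gene's estimate by those of other genes. An SE is thus not the gap between a gene's own pairs. With H2O2, FASN in DU145 cells changed by -0.66 in the vector pair and -1.07 in the PAGE4 pair, with an SE of 0.08. ACLY in 22RV1 cells changed by -0.53 in both pairs, with an SE of 0.07. In bulk RNA, fewer cells of a kind and less RNA per cell cannot be told apart.

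Total counts were between 25482984 and 43310401 reads per library. PAGE4 itself had 0 or 1 reads in the 4 vector libraries and 1001 to 1489 in the 4 PAGE4 libraries, as labelled. All 6 luminal prostate markers were higher in 22RV1 cells (log2 fold change 4.48 to 10.7), and of 4 DU145 markers 2 were lower and 1 was higher in 22RV1 cells. Of 5 markers of fibroblasts, leukocytes and endothelium, 4 were too low to test and COL1A1 was at 5.78 to 27.1 CPM, with H2O2 higher in 22RV1 (1.18) and lower in DU145 cells (-0.62 on the log2 scale), and its part in the results was not tested. The share of reads from mitochondrial genes was lower with H2O2 in all 4 pairs, from 12.3% to 9.19% and from 10.2% to 8.97% in 22RV1 cells and from 16.5% to 11.2% and from 14.6% to 10.9% in DU145 cells, and its part in the results on the 35 genes was not tested.

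Sequences before the transcription start are shown for 5 genes. SREBP-2, SREBP-1 and the factor NF-Y are known to act near the starts of their targets. SREBF2 was picked for its motif and the others for their changes, so the 5 do not stand for the 35. RefSeq windows from 250 bases before to 50 after the start were given for 30 of the 35 genes, as 42 windows on GRCh38.p14. ABCG1, ACAT2, FASN, SQLE and FDFT1 had none. The 250 bases before the start are printed 5′ to 3′ in the direction of transcription, with CACNCCAC, the core of a sterol response element, and CCAAT, the NF-Y box, in capitals on either strand. SREBF2 (chr22:41832855-41833104, plus strand) is the transcription factor's own gene and, of the 30 with a window, the only one with the longer form TCACNCCAC. INSIG1 (chr7:155297628-155297877, plus strand) and SCD (chr10:100346983-100347232, plus strand) were, with FASN, the members over 1.5-fold higher in PAGE4 than in vector cells in both 22RV1 pairs. MVD (chr16:88663092-88663341, minus strand) and LSS (chr21:46228775-46229024, minus strand) had the largest difference between the lines in the H2O2 change and the largest fall with H2O2 in DU145 cells, in that order.
SREBF2: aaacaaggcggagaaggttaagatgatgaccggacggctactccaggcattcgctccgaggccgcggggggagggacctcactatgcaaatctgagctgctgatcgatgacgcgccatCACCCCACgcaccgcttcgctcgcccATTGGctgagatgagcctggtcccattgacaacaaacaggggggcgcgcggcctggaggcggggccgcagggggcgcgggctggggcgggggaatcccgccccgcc
INSIG1: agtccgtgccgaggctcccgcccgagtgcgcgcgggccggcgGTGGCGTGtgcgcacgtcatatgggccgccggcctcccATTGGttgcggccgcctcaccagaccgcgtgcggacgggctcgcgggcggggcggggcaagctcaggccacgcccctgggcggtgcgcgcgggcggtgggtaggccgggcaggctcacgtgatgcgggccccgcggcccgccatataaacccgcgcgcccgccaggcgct
SCD: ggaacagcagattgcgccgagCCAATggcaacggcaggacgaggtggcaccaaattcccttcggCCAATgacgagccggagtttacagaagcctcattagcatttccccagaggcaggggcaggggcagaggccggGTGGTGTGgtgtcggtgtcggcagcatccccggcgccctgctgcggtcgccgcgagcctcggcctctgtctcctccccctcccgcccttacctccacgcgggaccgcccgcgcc
MVD: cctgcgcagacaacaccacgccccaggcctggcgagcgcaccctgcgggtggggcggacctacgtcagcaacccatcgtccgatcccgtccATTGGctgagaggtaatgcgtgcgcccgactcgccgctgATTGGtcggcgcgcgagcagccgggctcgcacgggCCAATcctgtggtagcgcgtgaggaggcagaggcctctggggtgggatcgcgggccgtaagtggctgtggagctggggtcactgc
LSS: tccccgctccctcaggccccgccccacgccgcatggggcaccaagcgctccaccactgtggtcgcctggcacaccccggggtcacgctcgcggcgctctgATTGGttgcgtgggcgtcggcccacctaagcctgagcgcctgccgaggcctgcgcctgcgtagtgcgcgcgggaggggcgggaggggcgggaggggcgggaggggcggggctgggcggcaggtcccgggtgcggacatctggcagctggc

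In the whole windows, CACNCCAC was found in 8 of the 42 member windows (19.0%), those of INSIG1, ABCA1, IDI1, SCD, ACACA, SREBF2 and both of SC5D, against 5.87% of 35116 RefSeq windows. The SC5D windows overlap and hold the same CACNCCAC match. Windows of other genes, such as ACLY, overlap too, so these counts of windows can hold a match more than once. CCAAT was found in 24 member windows (57.1%) against 34.6% of all windows. There were 5 matches each in MVK and NSDHL, 4 in MSMO1 and 3 each in MVD, FDPS, EBP and 1 window of IDI1. In NSDHL and in that IDI1 window, 1 stretch CCAATTGG was counted on both strands. The longer TCACNCCAC, which contains CACNCCAC, was in 1 member window (2.38%) and 1.13% of all, and the shorter core was added after that count was seen. The E-box CACGTG was in 6 member windows (14.3%) against 7.26%, and the Sp1 box GGGCGG in 37 (88.1%) against 45.0%. A match is a run of letters and not a site. LSS, the gene with the largest fall with H2O2 in DU145 cells, had 1 CCAAT match and no CACNCCAC match in its window.

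Per kilobase of exon, FASN, the multi-enzyme fatty acid synthase (chromosome 17, 82078338 to 82098294), and SCD, the stearoyl-CoA desaturase (chromosome 10, 100347233 to 100364826), stood at the top of the 35 genes in both lines. In the PBS libraries the mean was 522 CPM per kb for FASN and 289.7 for SCD in 22RV1 cells, against 124 and 236 in DU145 cells, so the order of the pair was opposite in the lines. The next in 22RV1 cells were ACLY at 113 and FDFT1 at 102.0 CPM per kb, and in DU145 cells ACLY at 105 and SREBF2 at 44.1. At the bottom in both lines were the efflux pumps ABCA1 and ABCG1, at 0.102 and 0.228 CPM per kb in 22RV1 cells and 0.239 and 0.132 in DU145 cells. In the 22RV1 PAGE4 PBS library FASN was the gene with the 7th highest read count of all, and in the other 22RV1 libraries it ranked 15 to 22. FASN ranked between 53 and 192 in DU145 cells.

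**Figure D1:**
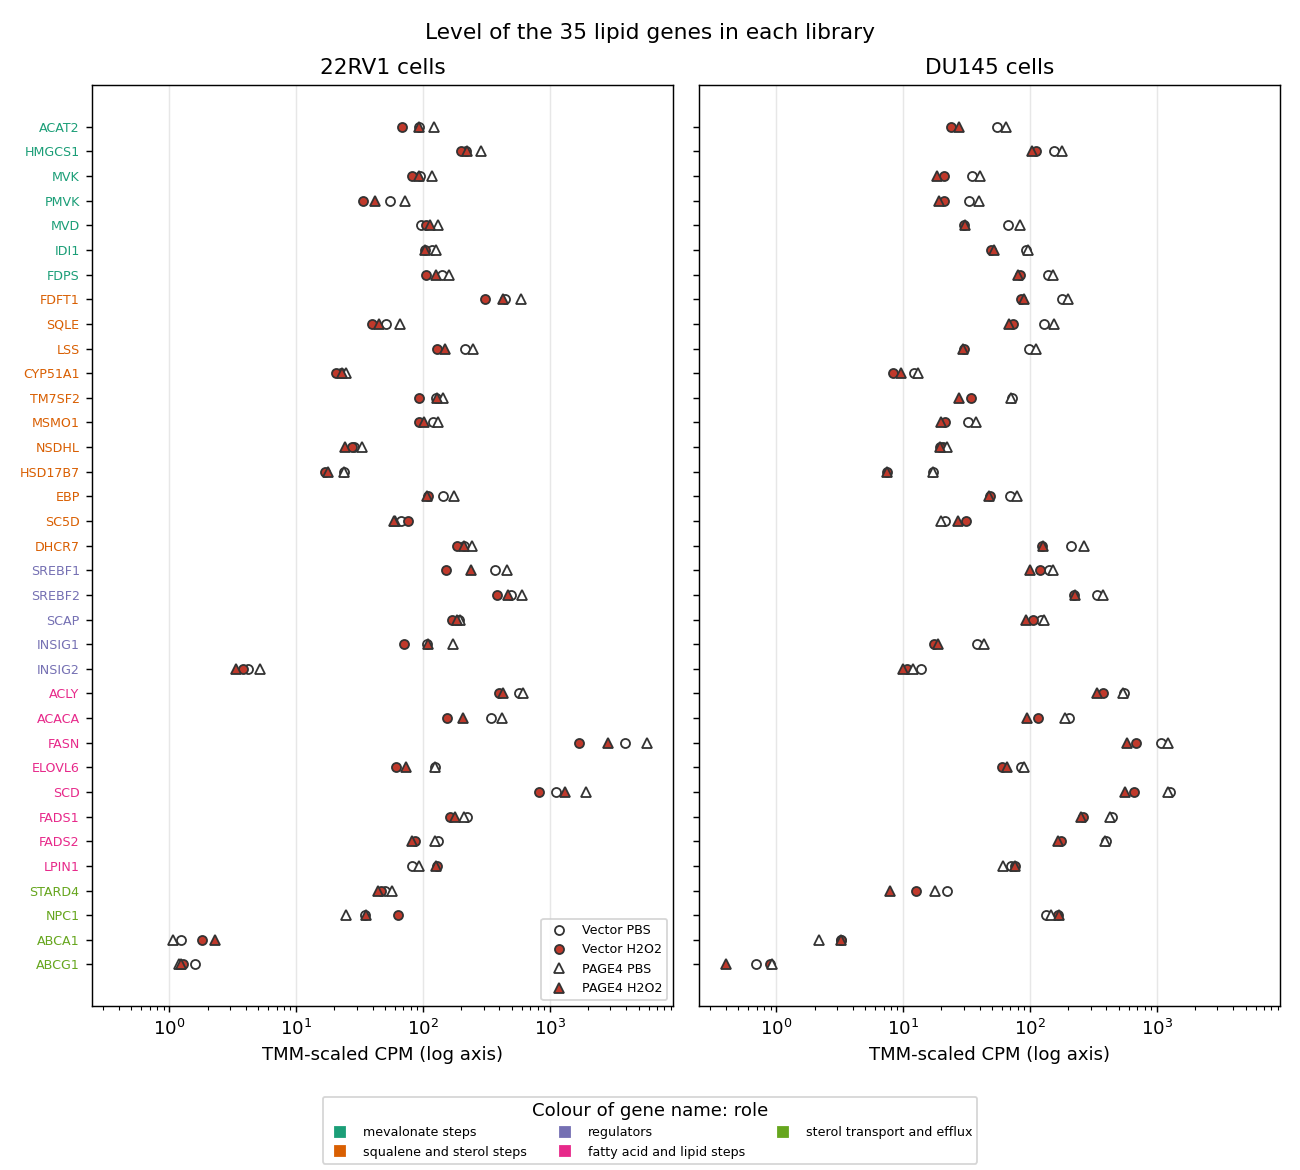
Level of each of the 35 genes in the 8 libraries (TMM-scaled CPM, log axis), 22RV1 at left and DU145 at right, with open symbols for PBS, filled for H2O2, circles for vector and triangles for PAGE4 cells. Most filled symbols lie left of the open ones of the same gene, and SC5D, LPIN1 and NPC1 are the exceptions in which both filled symbols lie right in DU145 cells.

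With H2O2 the synthesis genes were lower in both lines, and more of them and by more in DU145. In 22RV1 cells 23 of the 35 genes fell, 2 rose (LPIN1 and NPC1) and 10 did not pass the test, where 14.9% of all tested genes fell and 12.8% rose. In DU145 cells 28 fell, 2 rose (SC5D and NPC1) and 5 did not pass, where 19.8% of all genes fell and 16.9% rose. The median change of the 35 genes, on the log2 scale, was -0.36 in 22RV1 and -0.81 in DU145 cells, and that of all tested genes was -0.0017 and -0.0327.

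Most of the 35 genes are well expressed, and well expressed genes are called more often. Of 10311 genes whose mean reached 10 CPM, 24.2% fell in 22RV1 and 31.3% in DU145 cells, and of the 32 members above that level 23 and 28 fell. All 23 that fell in 22RV1 cells also fell in DU145 cells, and 5 more passed in DU145 alone (MVD, CYP51A1, DHCR7, SCAP and STARD4). The sign was the same in both lines for 35 of 35. Neither the overlap nor the agreement in sign was counted over all genes, so they have no share to stand beside. The 3 members under that level, INSIG2, ABCA1 and ABCG1, passed in neither line.

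Read library by library, both H2O2 libraries of 22RV1 cells were below both PBS libraries for 24 of the 35 genes, above them for 3, and overlapped for 8. Over all tested genes the libraries were separated downwards for 29.2% and upwards for 28.3%. In DU145 cells both H2O2 libraries were below for 30 genes, above for 3, and overlapped for ABCA1 and ABCG1 only. Over all tested genes the shares below and above were 34.3% and 30.3% there. For neither line were these shares worked out for genes of at least 10 CPM alone. Counted within the 4 matched pairs, 29 of the 35 genes were lower with H2O2 in 4 of 4 and 3 were higher in 4 of 4. This count was not made over all genes, so it has no share to stand beside. The 3 were LPIN1, NPC1 and ABCA1. ABCA1 was level in the DU145 vector pair (0.0006 on the log2 scale, from 89 reads with PBS and 81 with H2O2).

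Among the 35 genes, the changes in the vector pair and in the PAGE4 pair were close in 22RV1 cells. In DU145 cells the PAGE4 pair had more of the 35 over 1.5-fold lower and a lower median. Taken as single pairs of libraries, with no test, 8 of the 35 genes were over 1.5-fold lower with H2O2 in the 22RV1 vector pair and 10 in the 22RV1 PAGE4 pair, where 20.3% and 15.2% of all genes whose normalized count averaged 10 or more were. In DU145 cells 21 were over 1.5-fold lower in the vector pair and 26 in the PAGE4 pair, against 23.6% and 24.7% of all. Here too no share was worked out for genes of at least 10 CPM. The median change was -0.38 in both 22RV1 pairs, -0.67 in the DU145 vector pair and -0.94 in the DU145 PAGE4 pair. The sign was the same in both pairs for 32 of 35 genes in 22RV1 and 34 of 35 in DU145 cells. The changes differed by a median of 0.14 and 0.18 on the log2 scale. The medians and the agreement of the pairs were not worked out over all genes.

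**Figure D2:**
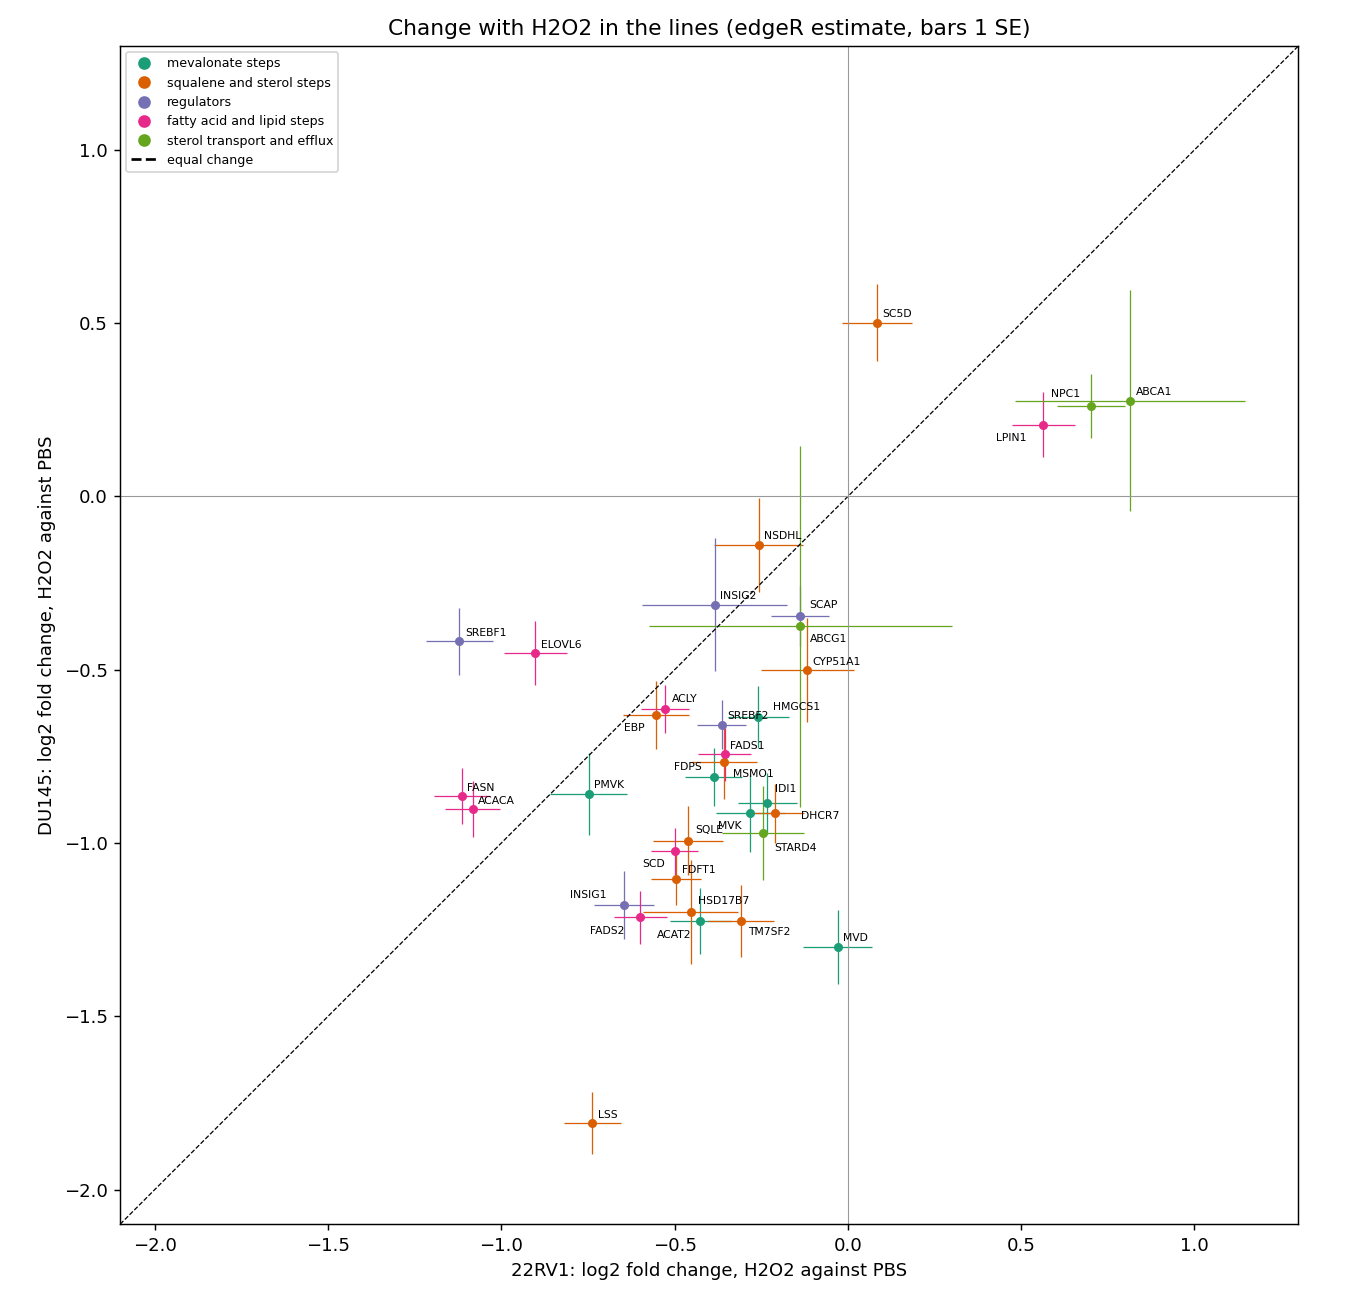
Log2 fold change with H2O2 in 22RV1 (x axis) and DU145 (y axis) for the 35 genes, edgeR estimates with bars of 1 SE, coloured by role, with a dashed line where the changes are equal. Of the 35 genes 28 lie below the line, LSS and MVD farthest from it, and SREBF1 and ELOVL6 lie far above it at the left.

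The mevalonate steps, from acetoacetyl-CoA to farnesyl diphosphate, fell in 6 of 7 genes in 22RV1 and in 7 of 7 in DU145 cells, with medians of -0.28 and -0.89. MVD, the decarboxylase that makes isopentenyl diphosphate, went from 96.9 to 106 CPM in the 22RV1 vector pair, 130.4 to 114 in 22RV1 PAGE4, 67.1 to 30.2 in DU145 vector and 83.5 to 30.7 in DU145 PAGE4. Both DU145 H2O2 libraries were far below both PBS libraries, while in 22RV1 cells the vector pair was slightly higher with H2O2 and the PAGE4 pair slightly lower. The log2 fold change was -1.30 (SE 0.11, adjusted p = 6.26e-08) in DU145 and -0.03 (SE 0.10, adjusted p = 0.87) in 22RV1 cells.

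ACAT2, the cytosolic thiolase that opens the pathway, went from 93.5 to 67.7 CPM in the 22RV1 vector pair, 121 to 92.8 in 22RV1 PAGE4, 54.9 to 23.7 in DU145 vector and 64.8 to 27.4 in DU145 PAGE4. Its log2 fold change was -0.43 (SE 0.09, adjusted p = 0.00151) in 22RV1 and -1.23 (SE 0.10, adjusted p = 3.63e-08) in DU145 cells. PMVK, the phosphomevalonate kinase, went from 55.3 to 33.6 CPM in the 22RV1 vector pair, 72.3 to 42.2 in 22RV1 PAGE4, 33.2 to 20.9 in DU145 vector and 39.5 to 19.1 in DU145 PAGE4. PMVK had the largest fall of this group in 22RV1 cells, -0.75 (SE 0.11, adjusted p = 7.71e-05), close to its -0.86 (SE 0.12) in DU145 cells. FDPS, the farnesyl diphosphate synthase, went from 140.4 to 105 CPM in the 22RV1 vector pair, 160.4 to 126 in 22RV1 PAGE4, 138 to 83.7 in DU145 vector and 151 to 80.9 in DU145 PAGE4, with log2 fold changes of -0.39 (SE 0.08) and -0.81 (SE 0.08).

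HMGCS1, MVK and IDI1 fell little in 22RV1 cells. HMGCS1, the HMG-CoA synthase, went from 219 to 199 CPM in the 22RV1 vector pair, 287 to 221 in 22RV1 PAGE4, 154 to 111 in DU145 vector and 178 to 103 in DU145 PAGE4. MVK, the mevalonate kinase, went from 94.8 to 81.8 CPM in the 22RV1 vector pair, 118 to 92.6 in 22RV1 PAGE4, 34.7 to 21.1 in DU145 vector and 40.0 to 18.5 in DU145 PAGE4. IDI1, the isomerase of isopentenyl diphosphate, went from 117 to 104 CPM in the 22RV1 vector pair, 126 to 103 in 22RV1 PAGE4, 92.4 to 49.5 in DU145 vector and 95.7 to 52.3 in DU145 PAGE4. In all 3 the H2O2 libraries of DU145 were clearly lower than the PBS libraries, and in 22RV1 cells HMGCS1 overlapped. Their 22RV1 changes of -0.26, -0.28 and -0.23 (adjusted p = 0.0368, 0.0453 and 0.0493) did not pass with scaling by total counts, and those of DU145, -0.64, -0.91 and -0.89, did. HMGCS1 and MVK lost the call in 22RV1 cells without the PAGE4 pair (-0.16 and -0.23, adjusted p = 0.309 and 0.203). IDI1 lost the call in 22RV1 cells whichever of the 4 pairs was left out, and FDPS has processed copies elsewhere in the genome whose treatment in the counting is not given in the sources used here.

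The squalene and sterol steps, from squalene synthesis to cholesterol, fell in 7 of 11 genes in 22RV1 and in 9 of 11 in DU145 cells, with 1 gene higher in DU145 cells. LSS, the cyclase that folds oxidosqualene into lanosterol (chromosome 21, 46188141 to 46228824), had the largest fall of the 35 genes in DU145 cells. It went from 216 to 129 CPM in the 22RV1 vector pair, 246 to 148 in 22RV1 PAGE4, 98.7 to 30.1 in DU145 vector and 111 to 29.6 in DU145 PAGE4. The DU145 level with H2O2 was 0.285 of the PBS level, a log2 fold change of -1.81 (SE 0.09, adjusted p = 2.05e-10), against -0.74 (SE 0.08, adjusted p = 3.51e-06) in 22RV1 cells.

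TM7SF2, a sterol C14 reductase, went from 128 to 93.0 CPM in the 22RV1 vector pair, 143 to 128 in 22RV1 PAGE4, 72.5 to 33.9 in DU145 vector and 70.3 to 27.4 in DU145 PAGE4. In 22RV1 cells its PAGE4 H2O2 library lay above the vector PBS library, so the groups overlapped, and the change of -0.31 (SE 0.10, adjusted p = 0.023) did not pass without the vector pair (-0.17, adjusted p = 0.389) or with total counts. In DU145 cells it was -1.22 (SE 0.10, adjusted p = 8.54e-08). HSD17B7, a sterol 3-ketoreductase, went from 23.6 to 16.9 CPM in the 22RV1 vector pair, 24.0 to 17.9 in 22RV1 PAGE4, 17.1 to 7.39 in DU145 vector and 17.1 to 7.49 in DU145 PAGE4, with log2 fold changes of -0.45 (SE 0.14) and -1.20 (SE 0.15). FDFT1, the squalene synthase, went from 446 to 308 CPM in the 22RV1 vector pair, 590.2 to 430.0 in 22RV1 PAGE4, 177 to 84.9 in DU145 vector and 197 to 89.3 in DU145 PAGE4, with -0.50 (SE 0.07) and -1.10 (SE 0.07). In all 3 both DU145 H2O2 libraries lay below both PBS libraries. HSD17B7 did not pass in 22RV1 cells without the vector pair or with total counts, and a pseudogene of closely like sequence exists.

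SQLE, the squalene epoxidase, went from 51.4 to 39.6 CPM in the 22RV1 vector pair, 65.7 to 45.0 in 22RV1 PAGE4, 128 to 72.8 in DU145 vector and 155 to 68.7 in DU145 PAGE4, with log2 fold changes of -0.46 (SE 0.10) and -0.99 (SE 0.10). DHCR7, a last enzyme of the route to cholesterol, went from 212 to 184 CPM in the 22RV1 vector pair, 243 to 209 in 22RV1 PAGE4, 211 to 125 in DU145 vector and 267 to 127 in DU145 PAGE4. DHCR7 fell in DU145 cells by 0.91 (adjusted p = 2.42e-07), and its -0.21 in 22RV1 cells did not pass (adjusted p = 0.0717). MSMO1, the methylsterol monooxygenase, went from 119 to 92.4 CPM in the 22RV1 vector pair, 130.3 to 103 in 22RV1 PAGE4, 32.3 to 21.4 in DU145 vector and 37.8 to 19.7 in DU145 PAGE4, with -0.36 (SE 0.10) and -0.77 (SE 0.11). EBP, a sterol isomerase, went from 143 to 109 CPM in the 22RV1 vector pair, 177 to 108 in 22RV1 PAGE4, 69.3 to 48.1 in DU145 vector and 78.6 to 47.3 in DU145 PAGE4, with changes of -0.55 (SE 0.09) and -0.63 (SE 0.10). In these 4 genes the PBS and H2O2 libraries of a line did not overlap, and MSMO1 did not pass in 22RV1 cells with total counts.

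CYP51A1, NSDHL and SC5D moved less or the other way. CYP51A1, the lanosterol demethylase, went from 22.5 to 20.7 CPM in the 22RV1 vector pair, 24.6 to 22.8 in 22RV1 PAGE4, 12.2 to 8.31 in DU145 vector and 13.02 to 9.56 in DU145 PAGE4, and its DU145 change of -0.50 (SE 0.15, adjusted p = 0.0133) did not pass when either DU145 pair was left out. NSDHL, which removes the C4 carboxyl group, was at 24.1 to 33.0 CPM in 22RV1 and 19.4 to 22.2 in DU145 cells and passed in neither, with -0.26 (SE 0.13) and -0.14 (SE 0.14). SC5D, the sterol C5 desaturase, went from 67.2 to 76.8 CPM in the 22RV1 vector pair, 59.8 to 58.7 in 22RV1 PAGE4, 21.4 to 31.1 in DU145 vector and 19.7 to 27.2 in DU145 PAGE4. SC5D was the only member of its group above PBS in both DU145 pairs, with 0.50 (SE 0.11, adjusted p = 0.00158), and it passed no longer without the DU145 vector pair (0.46, adjusted p = 0.0522).

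Of the 5 regulators, 3 fell in 22RV1 and 4 in DU145 cells. SREBF1 (chromosome 17, 17810399 to 17837002), which encodes SREBP-1 and is itself a target of SREBPs and of liver X receptors, went from 371 to 151 CPM in the 22RV1 vector pair, 461 to 239 in 22RV1 PAGE4, 141 to 119 in DU145 vector and 151 to 100.04 in DU145 PAGE4. In 22RV1 cells this was the largest fall of the 35 genes, -1.12 (SE 0.10, adjusted p = 1.49e-07), to 0.46 of the PBS level. In DU145 cells it was -0.42 (SE 0.10, adjusted p = 0.00229), and without the PAGE4 pair it was -0.25 (adjusted p = 0.177). SREBF2, for SREBP-2, went from 494 to 385 CPM in the 22RV1 vector pair, 607 to 469.8 in 22RV1 PAGE4, 337 to 222 in DU145 vector and 373 to 227 in DU145 PAGE4, with -0.36 (SE 0.07) and -0.66 (SE 0.07).

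INSIG1 (chromosome 7, 155297776 to 155310235), the retention factor and itself a sensitive SREBP target, went from 108 to 70.2 CPM in the 22RV1 vector pair, 173 to 109 in 22RV1 PAGE4, 38.3 to 17.4 in DU145 vector and 43.5 to 18.7 in DU145 PAGE4. The 22RV1 libraries overlapped, since PAGE4 cells with H2O2 were as high as vector cells with PBS, but within each pair the level fell. The log2 fold change was -0.65 (SE 0.09, adjusted p = 2.7e-05) in 22RV1 and -1.18 (SE 0.10, adjusted p = 7.18e-08) in DU145 cells. INSIG2, its relative, went from 4.2 to 3.82 CPM in the 22RV1 vector pair, 5.22 to 3.32 in 22RV1 PAGE4, 13.7 to 10.7 in DU145 vector and 12.0 to 10 in DU145 PAGE4, on 94 to 209 reads in 22RV1 and 251 to 376 in DU145 cells. It was lower with H2O2 in 4 of 4 pairs, yet its -0.38 (SE 0.21) and -0.31 (SE 0.19) did not pass (adjusted p = 0.193 and 0.232). SCAP, the escort, went from 193 to 169.7 CPM in the 22RV1 vector pair, 196 to 184 in 22RV1 PAGE4, 121 to 105 in DU145 vector and 129 to 92.3 in DU145 PAGE4. SCAP fell least of the called regulators, -0.34 (SE 0.09) in DU145 cells, where the call was lost without the PAGE4 pair (-0.21, adjusted p = 0.286), and it did not pass in 22RV1 cells with -0.14 (SE 0.08).

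The fatty acid and lipid steps fell in 7 of 8 genes in each line, and LPIN1 was the exception. FASN went from 3885 to 1688 CPM in the 22RV1 vector pair, 5838 to 2867 in 22RV1 PAGE4, 1086 to 689.8 in DU145 vector and 1226 to 582 in DU145 PAGE4. These reads alone were 0.399% of the 22RV1 vector PBS library and 0.190% with H2O2, and 0.596% and 0.318% in the PAGE4 pair. The log2 fold change was -1.11 (SE 0.08, adjusted p = 2.27e-08) in 22RV1 and -0.86 (SE 0.08, adjusted p = 2.62e-07) in DU145 cells. ACACA, the acetyl-CoA carboxylase that feeds FASN, went from 346 to 156 CPM in the 22RV1 vector pair, 417 to 207 in 22RV1 PAGE4, 205 to 116 in DU145 vector and 189 to 94.8 in DU145 PAGE4, with a like -1.08 (SE 0.08) and -0.90 (SE 0.08). ACLY, which cleaves citrate to acetyl-CoA, went from 567 to 394 CPM in the 22RV1 vector pair, 612 to 424 in 22RV1 PAGE4, 553 to 377 in DU145 vector and 541 to 339 in DU145 PAGE4, with -0.53 (SE 0.07) and -0.61 (SE 0.07).

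SCD, which makes oleate from stearate, went from 1119 to 822 CPM in the 22RV1 vector pair, 1920.2 to 1308 in 22RV1 PAGE4, 1262 to 661 in DU145 vector and 1215 to 561 in DU145 PAGE4. In 22RV1 cells the PAGE4 H2O2 library was above the vector PBS library, so the groups overlapped, and the fall was -0.50 (SE 0.07, adjusted p = 2.58e-05) against -1.02 (SE 0.07, adjusted p = 5.69e-09) in DU145 cells. ELOVL6, which elongates palmitate, went from 125 to 60.9 CPM in the 22RV1 vector pair, 125 to 73.2 in 22RV1 PAGE4, 84.4 to 60.6 in DU145 vector and 88.9 to 66.2 in DU145 PAGE4, and fell more in 22RV1, -0.90 (SE 0.09), than in DU145 cells, -0.45 (SE 0.09). FADS1 and FADS2, the desaturases of polyunsaturated fatty acids, lie on opposite strands and overlap in the annotation, and the strand setting of the counting is not given in the sources used here. FADS2 went from 131 to 86.3 CPM in the 22RV1 vector pair, 124 to 81.8 in 22RV1 PAGE4, 398 to 174 in DU145 vector and 389.6 to 165 in DU145 PAGE4, with -0.60 (SE 0.08) and -1.21 (SE 0.08). FADS1 went from 224 to 163 CPM in the 22RV1 vector pair, 211 to 177 in 22RV1 PAGE4, 440.2 to 263 in DU145 vector and 426 to 254 in DU145 PAGE4, with -0.36 (SE 0.08) and -0.74 (SE 0.08), and did not pass in 22RV1 cells without the vector pair (-0.26, adjusted p = 0.0518). LPIN1, a phosphatidate phosphatase and SREBP target that also acts as a coactivator of fat oxidation, went from 81.4 to 129.6 CPM in the 22RV1 vector pair, 92.6 to 127 in 22RV1 PAGE4, 70.6 to 76.0 in DU145 vector and 61.1 to 75.7 in DU145 PAGE4. It was higher with H2O2 in 4 of 4 pairs and rose in 22RV1 cells, 0.56 (SE 0.09, adjusted p = 0.00016), while 0.21 (SE 0.09) in DU145 cells did not pass (adjusted p = 0.097).

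Of the transport and efflux genes, NPC1, which lets cholesterol out of lysosomes, went from 35.1 to 64.0 CPM in the 22RV1 vector pair, 24.6 to 35.2 in 22RV1 PAGE4, 134 to 167 in DU145 vector and 147 to 169 in DU145 PAGE4. It was the only one of the 35 genes that rose in both lines, by 0.70 (SE 0.10, adjusted p = 3.95e-05) in 22RV1 and 0.26 (SE 0.09, adjusted p = 0.0359) in DU145 cells. The DU145 call was lost when either DU145 pair was left out (0.20 and 0.32, adjusted p = 0.395 and 0.139). STARD4, a carrier of sterol in the cytosol and an SREBP-2 target, went from 50.3 to 46.3 CPM in the 22RV1 vector pair, 56.6 to 43.8 in 22RV1 PAGE4, 22.1 to 12.7 in DU145 vector and 17.7 to 7.93 in DU145 PAGE4, and fell in DU145 cells, -0.97 (SE 0.14, adjusted p = 2.15e-05), while its -0.24 (SE 0.12) in 22RV1 cells did not pass.

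The efflux pumps were near the low end of what these libraries can compare. ABCA1 had 55, 70, 43 and 65 reads in 22RV1 vector PBS, vector H2O2, PAGE4 PBS and PAGE4 H2O2, and 89, 81, 59 and 81 in the same order in DU145 cells. That is 1.24, 1.81, 1.07 and 2.30 CPM and 3.25, 3.25, 2.18 and 3.23 CPM, with both 22RV1 H2O2 libraries above both PBS libraries. Its change of 0.81 (SE 0.33, adjusted p = 0.0794) did not pass, nor did 0.28 (SE 0.32) in DU145 cells. ABCG1 had 71, 50, 48 and 35 reads in 22RV1 and 19, 22, 25 and 10 in DU145 cells, or 1.59, 1.29, 1.20 and 1.24 CPM and 0.694, 0.883, 0.922 and 0.398 CPM. Its changes of -0.14 (SE 0.44) and -0.37 (SE 0.52) were smaller than their SE.

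The fall with H2O2 differed between the lines for 19 of the 35 genes by the test of the difference, taken as the 22RV1 change minus the DU145 change. It was positive for 17, where 8.76% of all tested genes were called positive, and negative for 2, SREBF1 and ELOVL6, where 7.54% were. At the level of at least 10 CPM the background was 14.2% of genes against 17 of 32 members. Of the 17, 16 fell in DU145 cells and NPC1 rose more in 22RV1 cells.

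The positive differences were led by MVD, at 1.27 (SE 0.15, adjusted p = 1.15e-05), LSS, at 1.07 (SE 0.12), and TM7SF2, at 0.92 (SE 0.14). By role they took in 5 of 7 mevalonate genes, 6 of 11 squalene and sterol genes, 1 regulator (INSIG1, 0.53, SE 0.13), 3 fatty acid genes (SCD, FADS1 and FADS2) and 2 transport genes (STARD4 and NPC1). SREBF1, at -0.70 (SE 0.14, adjusted p = 0.0016), and ELOVL6, at -0.45 (SE 0.13, adjusted p = 0.0244), fell further in 22RV1 cells. The test did not pass for FASN (-0.25, SE 0.11), ACACA (-0.18, SE 0.11) and ACLY (0.09, SE 0.10). It also missed the threshold for SREBF2 (0.29, SE 0.10, adjusted p = 0.053) and HMGCS1 (adjusted p = 0.0504). Without the DU145 PAGE4 pair several of these differences no longer passed, that of ELOVL6 (-0.43) among them. With total counts ELOVL6 did not pass either (-0.39, edgeR adjusted p = 0.0507).

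With PAGE4, 8 of the 35 genes were higher and 1 was lower in 22RV1 cells, where 2.15% and 2.14% of all tested genes were, and 3.59% of the genes of at least 10 CPM were higher. In DU145 cells none of the 35 was called by edgeR, where 0.112% of all genes were higher and 0.058% lower. At an unadjusted p under 0.05 there were 5 of the 35 members in DU145 cells, 2 higher and 3 lower, where 1685 of all 22418 tested genes were. DESeq2's Wald test called 0 members there. The median change of the 35 genes in single pairs was 0.19 with PBS and 0.16 with H2O2 in 22RV1 cells, and 0.10 and -0.05 in DU145 cells.

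The 8 higher genes in 22RV1 PAGE4 cells took in 3 of fatty acid synthesis, 3 regulators and 2 sterol genes. SCD was at 1119 CPM in vector and 1920.2 in PAGE4 cells with PBS, and at 822 and 1308 with H2O2, a log2 fold change of 0.72 (SE 0.07, adjusted p = 2.42e-06). FASN was at 3885 and 5838 with PBS and at 1688 and 2867 with H2O2, 0.68 (SE 0.08, adjusted p = 3.76e-05), and DESeq2's test did not call it (0.70, adjusted p = 0.0596). INSIG1 was at 108 and 173 with PBS and at 70.2 and 109 with H2O2, 0.66 (SE 0.09, adjusted p = 0.000136). In all 3 the PAGE4 library was higher in both pairs by a like amount.

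SREBF1 was at 371 and 461 CPM with PBS and at 151 and 239 with H2O2, 0.48 (SE 0.09, adjusted p = 0.00522). NPC1 was the lower gene, at 35.1 in vector and 24.6 in PAGE4 cells with PBS and at 64.0 and 35.2 with H2O2, -0.69 (SE 0.10, adjusted p = 0.000296). The other 4 higher genes were FDFT1 (0.44, SE 0.07), ACAT2 (0.41, SE 0.09), ACACA (0.34, SE 0.08) and SREBF2 (0.29, SE 0.07). ACACA lost the call without the H2O2 pair (0.29, adjusted p = 0.111). A fit with 1 PAGE4 effect common to both lines called none of the 35 by edgeR. At an unadjusted p under 0.05 it had 10 members, 9 of them higher, a count that was not made over all genes.

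The PAGE4 difference itself differed between the lines for 5 genes, 4 positive and 1 negative, where 0.865% and 0.977% of all genes were. SCD was 0.72 in 22RV1 and -0.15 in DU145 cells, a difference of 0.87 (SE 0.10, adjusted p = 4.27e-05). FASN was 0.68 and -0.03, a difference of 0.71 (SE 0.11, adjusted p = 0.00215), which DESeq2's test did not call (adjusted p = 0.342). The others were SREBF1 (0.56, SE 0.14), ACACA (0.54, SE 0.11) and NPC1 (-0.77, SE 0.14), and without the DU145 H2O2 pair 3 genes were called, SREBF1 and ACACA not among them.

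In single pairs of libraries, 3 of the 35 genes were over 1.5-fold apart between PAGE4 and vector cells in 22RV1 with PBS (SCD, INSIG1 and FASN, all higher), where 18.2% of all genes were. With H2O2 there were 5, FASN, SCD, SREBF1 and INSIG1 higher and NPC1 lower, against 21.9% of all. In DU145 cells none was over 1.5-fold with PBS, against 17.3%, and with H2O2 there were 2, STARD4 and ABCG1, both lower, against 17.4%. The log2 fold change of STARD4 was -0.68 (95% interval -0.94 to -0.42) and that of ABCG1 -1.12 (-2.39 to -0.01, on 10 and 22 reads), and these intervals cover counting error only.

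**Figure D3:**
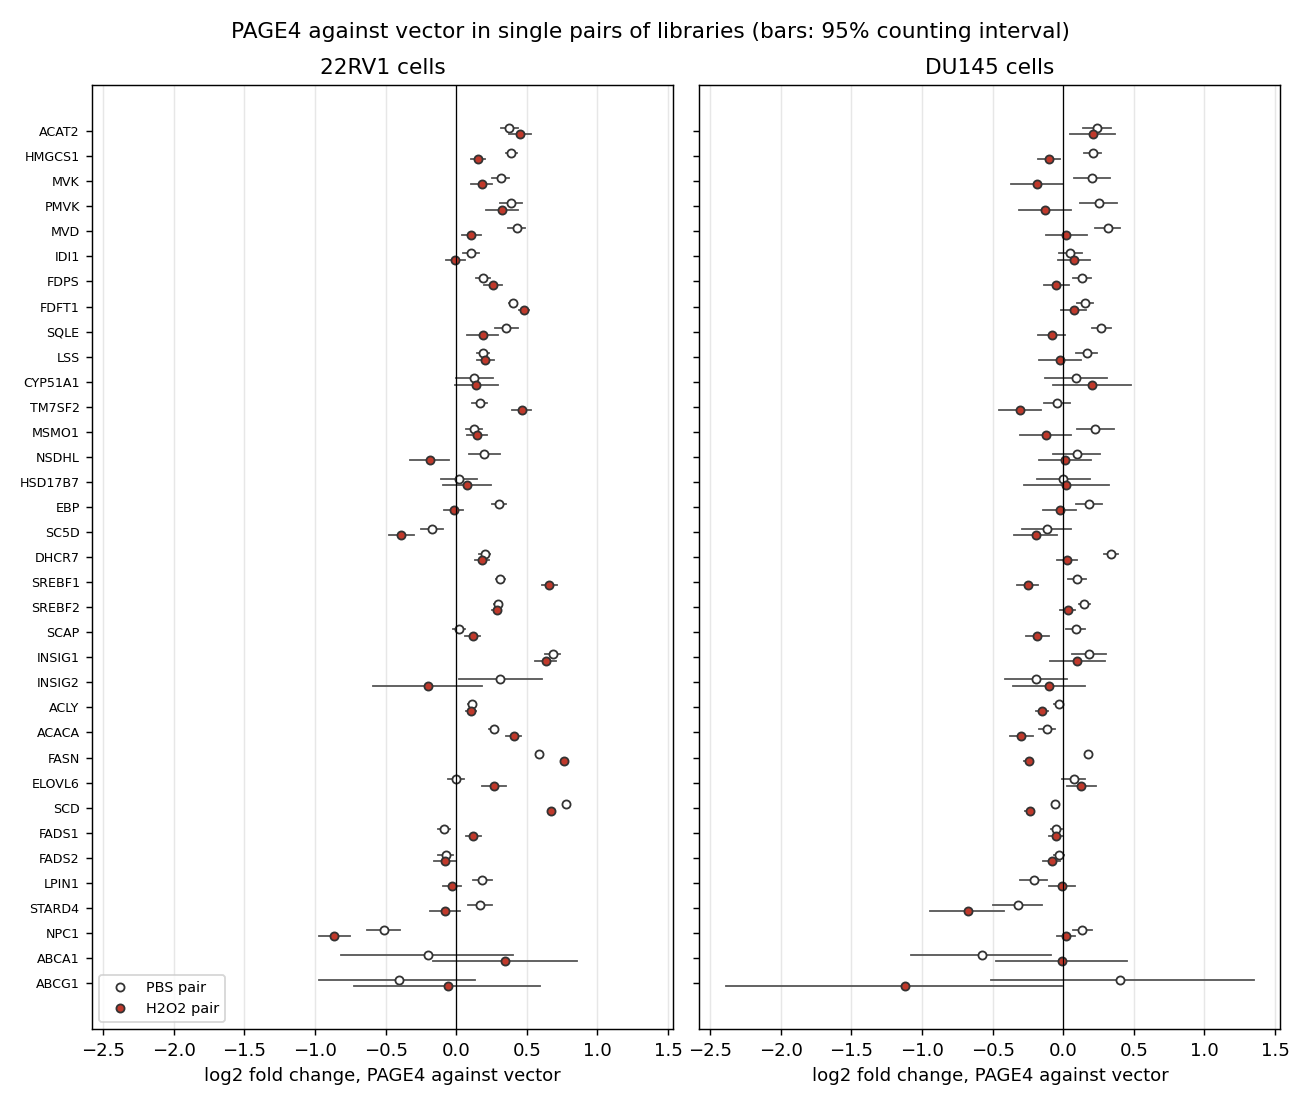
Log2 fold change of PAGE4 against vector cells in single pairs of libraries for the 35 genes, open points for the PBS pair, filled for the H2O2 pair, bars for the 95% counting interval, 22RV1 at left and DU145 at right. In 22RV1 cells SCD, FASN and INSIG1 lie near 0.6 to 0.8 in both pairs and NPC1 lies below -0.5, and in DU145 cells most points lie near 0.

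Whether the H2O2 change differed with the construct was not tested, and the values are given side by side. In 22RV1 cells the log2 change was lower, that is more negative or less positive, in the PAGE4 pair for 19 of the 35 genes and higher for 16, with a median difference of -0.0023 on the log2 scale. In DU145 cells it was lower in the PAGE4 pair for 28 and higher for 7, with a median difference of -0.18. Among the 28 were SC5D and NPC1, which rose less. These counts and medians were not worked out over all genes, and a shift common to all genes was not tested. The widest differences were those of ABCA1 in 22RV1 (0.54) and ABCG1 in DU145 cells (-1.52), 2 genes of few reads.

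Between the lines, over the 4 matched conditions, 23 of the 35 genes were higher in 22RV1 cells and 6 were lower, where 31.9% of all tested genes were higher and 28.5% lower, and 32.5% of genes of at least 10 CPM were higher. With scaling by total counts all 35 were called, 29 higher and 6 lower, but that scaling moved the median of all tested genes from 0.08 to 0.28. MSMO1 led, at 92.4 to 130.3 CPM in 22RV1 and 19.7 to 37.8 in DU145 cells, a log2 fold change of 2.04 (SE 0.13, adjusted p = 5.62e-06). INSIG1 was at 70.2 to 173 and 17.4 to 43.5, 2.01 (SE 0.17, adjusted p = 2.35e-05). FASN was at 1688 to 5838 and 582 to 1226, 1.92 (SE 0.18, adjusted p = 4.07e-05). For these 3 the ranges of the lines did not overlap.

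MVK (1.82, SE 0.16), STARD4 (1.79, SE 0.20), FDFT1 (1.76, SE 0.16) and LSS (1.67, SE 0.22) followed. The 6 lower genes were NPC1, INSIG2, FADS2, SQLE, ABCA1 and FADS1. ABCA1 lost the call without the vector PBS or the PAGE4 PBS libraries (-0.78 and -0.90, adjusted p = 0.0777 and 0.0518), and NSDHL, among the higher genes, without the PAGE4 PBS libraries (0.43, adjusted p = 0.0554). NPC1 was at 24.6 to 64.0 CPM in 22RV1 and 134 to 169 in DU145 cells, -2.04 (SE 0.19, adjusted p = 4.15e-05). INSIG2 was at -1.50 (SE 0.18) and FADS2 at -1.32 (SE 0.14), so INSIG1 and INSIG2 differed between the lines in opposite directions. SCD, ELOVL6, FDPS, DHCR7, ACLY and ABCG1 did not pass, with log2 fold changes from 0.15 to 0.91.

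**Figure D4:**
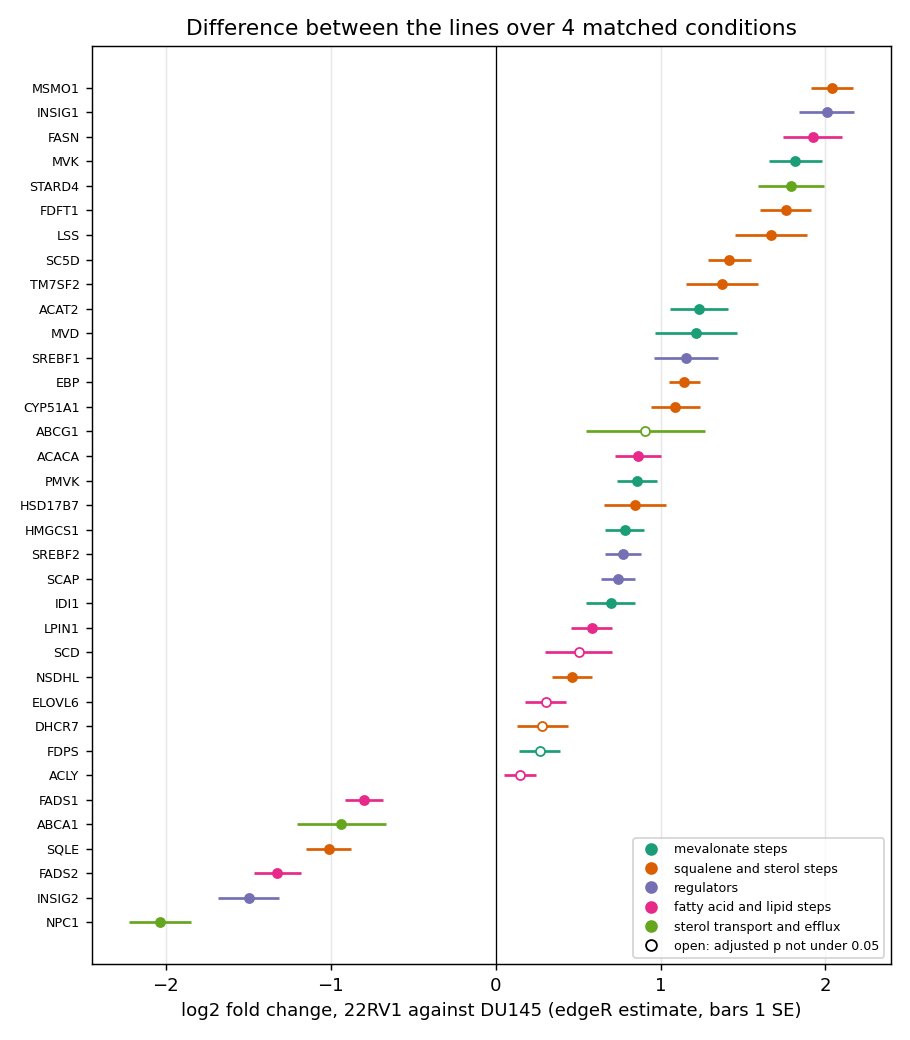
Log2 fold change of 22RV1 against DU145 over the 4 matched conditions for the 35 genes in order of size, edgeR estimates with bars of 1 SE, coloured by role and open where the adjusted p was not under 0.05. MSMO1, INSIG1 and FASN stand at the top near 2 and NPC1 at the bottom near -2.

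Genes of the same pathways outside the 35 moved in both directions with H2O2, and their counts stand beside 12.8% of all tested genes that rose and 14.9% that fell in 22RV1 and 16.9% and 19.8% in DU145 cells, so that several of them lie near the share over all genes. Of 10 other sterol and isoprenoid genes 3 rose and 2 fell in 22RV1 and 4 rose and 3 fell in DU145 cells, medians -0.01 and 0.25. LBR, a nuclear sterol reductase, fell, at -0.74 (SE 0.09) and -0.68 (SE 0.09), and RABGGTB, a prenyl transferase subunit, rose, at 0.51 (SE 0.09) and 0.81 (SE 0.09). Of 23 other fatty acid and glycerolipid genes 4 rose and 7 fell in each line, medians -0.02 and -0.09, with SLC25A1, the citrate carrier, at -0.49 (SE 0.08) and -1.08 (SE 0.08). Of 8 genes of SREBP processing and sterol sensing, 2 rose and 1 fell in 22RV1 and 4 rose and 2 fell in DU145 cells, medians 0.05 and 0.19. MBTPS2, the site-2 protease that frees SREBPs, fell in both, -0.49 (SE 0.12) and -1.01 (SE 0.13), and FBXW7, which marks nuclear SREBPs for breakdown, rose in both, 0.87 (SE 0.13) and 0.65 (SE 0.15).

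Of 9 genes of liver X receptors and their targets, 2 rose and 2 fell in 22RV1 and 3 rose and 2 fell in DU145 cells, medians 0.11 and -0.11. MYLIP, a target that marks lipoprotein receptors for breakdown, rose by 0.74 (SE 0.16) and 0.45 (SE 0.16), and ABCA2, a transporter, fell by 0.95 (SE 0.08) and 1.29 (SE 0.08). Of 12 genes of sterol uptake, trafficking and esters, 2 rose and 2 fell in 22RV1 and 2 rose and 8 fell in DU145 cells, medians -0.13 and -0.51, among them LIPA, the lysosomal lipase, at -0.53 (SE 0.11) and -0.72 (SE 0.11). Fatty acid oxidation, the opposite of synthesis, fell in 8 of 14 genes in 22RV1 and 10 of 14 in DU145 cells with none higher, medians -0.32 and -0.56, where 24.2% and 31.3% of the genes of at least 10 CPM fell. Its members included ACADM, a medium-chain dehydrogenase, at -0.98 (SE 0.10) and -0.68 (SE 0.11), and CPT1A, the carnitine transferase that admits fatty acids to mitochondria, at -0.74 (SE 0.09) and -0.59 (SE 0.09).

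In 22RV1 cells all 6 luminal prostate genes also fell with H2O2, FOLH1, a surface peptidase, least, at -0.57 (SE 0.14), and KLK3, a secreted protease of the prostate, most, at -2.21 (SE 0.23), and the part of this in the fall of the 35 genes was not tested. KLK3 was at 22.9 and 3.67 CPM in 22RV1 vector cells with PBS and H2O2 and at 24.04 and 6.93 in PAGE4 cells, and had 0 or 1 reads in each DU145 library. With PAGE4 in 22RV1 cells KLK2, a related protease, was 0.49 (SE 0.13) and FOLH1 -0.95 (SE 0.14), so luminal genes moved in both directions there.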

How the data were processed

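RNA-seq libraries of 22RV1 and DU145 cells, 1 for each of 8 conditions, were analysed from the deposited raw read counts per gene. Per the study's methods and processing notes, alignment to GRCh38 was done by the authors in HISAT2 2.1.0 and counting in featureCounts 1.6.0, with no normalization. The annotation release and the settings for strand and for reads with several matches are not given in the sources used here.

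Counts were scaled by TMM over the 8 libraries and tested in edgeR 4.0.16 (R 4.3.3) by its quasi-likelihood test, after filterByExpr, with adjusted p under 0.05 as the limit. For H2O2 the 4 pairs of line and construct were blocks with 1 term per line, for PAGE4 the 4 pairs of line and treatment, each with 2 residual degrees of freedom, and for the lines the 4 conditions, with 3. The SE is the log2 fold change over the square root of F. Single pairs used a pseudocount of 0.5, an average normalized count of 10 or more in the line, a limit of 1.5-fold after the study's methods, and exact 95% Clopper-Pearson intervals. Total counts of 25482984 to 43310401 set the precision, and intervals cover counting error only. Gene positions and exon lengths are those of GENCODE 44 on GRCh38 and promoter windows those of RefSeq. The scripts were tested on simulated data.

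The 35 genes, the roles and the other gene lists were chosen with earlier results of these data known. 2 of the listed genes outside the 35 are not reported here. Any of the 35 could be named. Values of all 8 libraries were to be given for genes called with H2O2 or for its difference, for the regulators and efflux genes, and for the 5 largest changes between lines and with PAGE4, and up to 3 called genes of each other list. The alternatives were DESeq2 1.42.0 size factors, total counts, no filter, DESeq2's Wald test, each line alone, 1 effect for both lines, each pair left out, a fold limit of 2, a pseudocount of 1, and no count minimum or 50. The comparison with genes of at least 10 CPM, the separation of libraries and the motif CACNCCAC were added after the data were seen.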

Additional observations from a re-analysis of the deposited data

Results flagged for a closer look

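These results stand out because edgeR's test of the difference between the lines passed, that is, the change in 22RV1 cells and the change in DU145 cells were not the same within the spread of the pairs. With H2O2, the change in 22RV1 minus that in DU145 cells, on the log2 scale, was positive in the mevalonate genes MVD (1.27), ACAT2 (0.80), IDI1 (0.65), MVK (0.63) and FDPS (0.42). It was positive in the squalene and sterol genes LSS (1.07), TM7SF2 (0.92), HSD17B7 (0.74), DHCR7 (0.71), FDFT1 (0.61) and SQLE (0.53). It was also positive in STARD4 (0.73), FADS2 (0.62), INSIG1 (0.53), SCD (0.52), NPC1 (0.44) and FADS1 (0.39), and negative in SREBF1 (-0.70) and ELOVL6 (-0.45). With PAGE4 the difference was positive in SCD (0.87), FASN (0.71), SREBF1 (0.56) and ACACA (0.54) and negative in NPC1 (-0.77). Without the DU145 PAGE4 pair 9 of the H2O2 differences no longer passed. Their size was then near that above for HSD17B7 (0.75), FADS1 (0.38), ELOVL6 (-0.43), INSIG1 (0.49) and NPC1 (0.38), and smaller for STARD4 (0.56), MVK (0.44), SQLE (0.35) and FDPS (0.33). Without the 22RV1 vector pair NPC1 (0.21) and ELOVL6 (-0.37) did not pass either, nor FADS1 (0.24) and FDPS (0.34) without the 22RV1 PAGE4 pair. Without the DU145 vector pair HSD17B7 (0.73), FADS1 (0.39), ELOVL6 (-0.48) and NPC1 (0.49) did not pass. DESeq2's Wald test did not call HSD17B7 (0.71, adjusted p = 0.0579) and NPC1 (0.40, adjusted p = 0.0705). Without the filter on low counts FDPS (0.35) and NPC1 (0.36) did not pass in edgeR.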

How the results depend on the processing

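No value of a called gene changed its direction under any alternative. With each pair left out in turn, the number of the 35 genes called was 22 to 24 with H2O2 in 22RV1, 26 to 31 in DU145 and 11 to 20 for the difference (11 without the DU145 PAGE4 pair). It was 9 to 10 with PAGE4 in 22RV1, 0 to 1 in DU145 (1 without either 22RV1 pair), 3 to 6 for the difference (3 without the DU145 H2O2 pair) and 28 to 30 between the lines. With 1 effect common to both lines, 0 genes were called for PAGE4 by edgeR (10 at an unadjusted p under 0.05, not counted over all genes). Scaling by total counts moved the median of all tested genes with H2O2 in 22RV1 from -0.0017 to 0.116, and 20 genes were then called there in place of 25, 17 of them lower. The fold limit of 2 left 4 genes in the 22RV1 vector pair with H2O2, 3 in the PAGE4 pair, and 8 and 16 in the DU145 pairs. For PAGE4 against vector it left 0 in both 22RV1 pairs and 1 in the DU145 H2O2 pair, where a mean count of at least 50 also left 1. The causes were not tested. No paired analysis by replicate number was possible because the labels carry none. Depth limits ABCA1 and ABCG1, with 10 to 89 reads per library, and with 1 library per condition no culture was repeated.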

Other observations

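Outside the 35 genes, the list of other fatty acid and glycerolipid genes held a wide difference between PAGE4 and vector cells in 22RV1. Of its 23 genes, 3 were called lower and 1 higher there, where 2.14% and 2.15% of all tested genes were. ACSL5, an acyl-CoA synthetase that readies fatty acids for lipids, had 433 reads in vector and 7 in PAGE4 cells with PBS, and 84 and 8 with H2O2, or 9.72, 0.175, 2.17 and 0.283 CPM. Both PAGE4 libraries were thus far below both vector libraries, a log2 fold change of -4.58 (SE 0.53, edgeR adjusted p = 3.28e-05). In DU145 cells ACSL5 had 6 to 10 reads in every library. ACSL1, a related synthetase, and ME1, the malic enzyme that supplies NADPH for fatty acid synthesis, were lower with PAGE4 in 22RV1 cells as well, at -0.63 (SE 0.11) and -0.57 (SE 0.14), while FASN and SCD were higher in the same libraries. RXRA, the partner of the liver X receptors, was at 29.0 CPM in vector and 15.9 in PAGE4 cells with PBS and at 29.8 and 18.1 with H2O2, a log2 fold change of -0.80 (SE 0.10, edgeR adjusted p = 7.15e-05), and its level in DU145 cells was 93.6 to 105 CPM in the 4 libraries. Each construct in a line was 1 culture, so PAGE4 and the culture cannot be told apart in these values.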
